A study of Mus musculus with 25 samples.

Results

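The unmarked open regions of mK4 cells are stretches of accessible DNA on which no Notch or Mef2c complex and no Notch1 binding was listed. They were taken from the total FAIRE list of N1wt cells on chromosomes 1 to 19 and X. A region was kept when it overlapped, by 1 bp or more, no Notch-dependent FAIRE region, no region of the 6 split DamID (SpDamID) lists and no N1 ChIP region. Of 19353 total FAIRE regions, 2270 overlapped a Notch-dependent one, which left 17083 outside that list, called constitutive below as a working name. Among these, 5397 were unmarked, 31.6% (exact Clopper-Pearson 95% interval 30.9 to 32.3%). The number rests on the overlap rule and on the thresholds of the FAIRE and SpDamID lists. It was 9459, 55.4%, when only the central base of a FAIRE region counted. With FAIRE regions from the list's median score up it was 2191, 26.2%, and with SpDamID regions from each list's median score up 7273, 42.6%. Over all 19353 total FAIRE regions, Notch-dependent ones included, 31.3% had neither a complex nor ChIP. The same share over the 2270 Notch-dependent regions was 29.1% (27.3 to 31.0%). The unmarked regions were chosen by their lack of overlap with these lists, so the overlaps are a description and carry no test. The name constitutive says only that a region is absent from the Notch-dependent list. The labels and files do not say how that list was made, and openness in control cells was not analysed here.

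The study mapped protein complexes on DNA in mK4, a mouse cell line from embryonic kidney mesenchyme, in 25 sequencing libraries. SpDamID joins an inactive piece of the bacterial methylase Dam to each of 2 proteins, so that adenine in GATC is methylated where both proteins meet. Methylated DNA was cut with DpnI and amplified, and each list is therefore made of fragments between GATC sites. The fused pairs were N1-D/RBP-AM-Ert2, N1-D/MAML-AM-Ert2 and N1-D/p300-AM-Ert2 with 3 libraries each, N1-D/N1-AM-Ert2 with 2, and Mef2c-D/MAML-AM-Ert2 and Mef2c-D/p300-AM-Ert2 with 1 each. All were scored relative to Dam, for which there were 3 DAM libraries. FAIRE had 3 N1wt libraries, 1 N1wt input and 3 control libraries, and the ChIP of myc-tagged N1 had 1 library and 1 input. The strain label is CD2 for 1 N1/N1 library, CD3 for the Mef2c/MAML library and CD1 for all others. Agents, doses and the nature of the FAIRE control are not given in the labels. Which libraries enter each list is not stated, and no list gives values for separate replicates. Depth per library is unknown, and no test over replicates could be made. Intervals below cover counting error only. Regions along a chromosome are not independent of one another, and no difference given below was tested.

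FAIRE recovers DNA that is little bound by nucleosomes, which in animal cells lies mostly at promoters, enhancers and insulators. In the Notch pathway, the cleaved receptor Notch1 (N1) joins the DNA-binding protein RBP and the co-activator MAML, and MAML recruits the acetyltransferase p300. N1/N1 reads out Notch molecules that lie side by side on DNA. Mef2c, a MADS-box transcription factor, also works with p300.

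The marks that removed a region overlapped broadly. Of the 17083 constitutive regions, 10433 lay on at least 1 SpDamID fragment and 3514 on an N1 ChIP region, and 2261 had both. Without any complex there were 6650 regions, of which 1253 had ChIP alone. ChIP was missing from 81.2% (80.2 to 82.1%) of the regions with no complex and from 78.3% (77.5 to 79.1%) of those with one. Some regions missed membership by a single list. N1/N1 was the only mark of 693 of the 7224 constitutive regions it marked, and Mef2c/MAML of 534 of 6896. N1/RBP was it for 268 of 6847 and N1/MAML for 215 of 4347. The p300 pairs were the only mark least often, N1/p300 for 123 of 5392 regions and Mef2c/p300 for 110 of 3661. At the other end, 1677 constitutive regions lay on fragments of all 6 complexes. The unmarked regions together covered 4.58 Mb, 22.7% of the 20.2 Mb of total FAIRE.

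**Figure D1:**
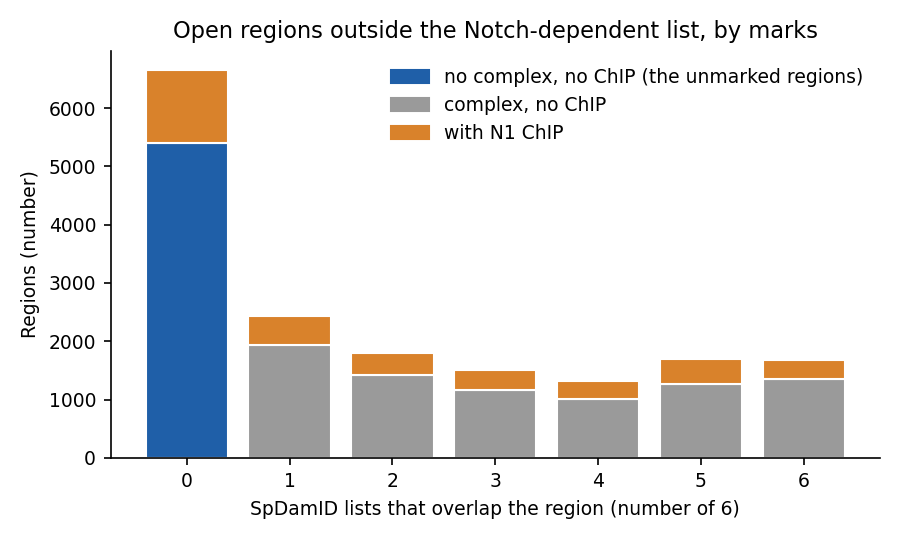
Number of constitutive open regions (vertical axis) by the number of SpDamID lists that overlap them (horizontal axis, 0 to 6), with N1 ChIP in orange. The blue bar holds the 5397 unmarked regions, and the 1253 above it carry ChIP alone.

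Unmarked regions were shorter than marked ones. Their length ran from 255 to 3031 bp with a median of 786 bp (exact binomial interval of the median 778 to 794), against 296 to 14846 bp and a median of 995 bp (985 to 1005) for the 11686 marked constitutive regions. The ranges overlapped widely, and the median was lower in unmarked regions on 20 of 20 chromosomes. Of the 1000 shortest constitutive regions 591 were unmarked, and of the 1000 longest 51 were. In 10 equal classes of constitutive regions from the shortest to the longest, the unmarked share ran 56.3, 46.1, 43.1, 36.8, 33.7, 28.0, 24.8, 23.0, 16.1 and 7.70%. No class broke this order. A longer region has more bases that a mark can touch, so the rule of 1 bp by itself leaves more short regions unmarked. How much of the order comes from the rule was not tested. Both kinds of mark followed length: from the shortest to the longest quartile, regions without a complex made up 54.4, 44.6, 36.0 and 20.6%, and regions without ChIP 92.2, 83.8, 76.5 and 65.2%. When only the central base of each region had to lie in a mark, the unmarked share ran 64.9, 57.7, 52.6 and 46.2% over the length quartiles, and by any overlap it was 2145 of 4293 regions in the shortest quartile and 36.4, 25.9 and 14.0% in the others.

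The deposited MACS score, whose scale is not given, was also lower in unmarked regions. Its median was 133 (131 to 136) in unmarked and 164 (162 to 167) in marked constitutive regions, and it was lower in unmarked regions on 20 of 20 chromosomes. Score and length rose together, with a Spearman rho of 0.46 across the 5397 unmarked regions and 0.44 across the 11686 marked ones. These values are across regions, which share their libraries and are not replicates. At like length the difference in score nearly vanished. In the shortest quartile (255 to 727 bp) the median score was 101 in unmarked and 103 in marked regions. It was 138 in unmarked and 140 in marked regions of 728 to 915 bp, and 181 in unmarked and 182 in marked regions of 916 to 1240 bp. In the longest quartile it was 231 in unmarked and 229 in marked regions. The interval of each median held the other group's median in all 4 quartiles. With only FAIRE regions from the list's median score up, these differences were less even, from -16.1 in the longest to 13.4 in the second quartile. Within a length quartile, the unmarked share spanned a few points over the score quartiles. From the lowest to the highest score quartile it was 50.7, 50.3, 48.6 and 46.7% among the shortest regions, with overlapping intervals, and 38.5, 34.3, 35.8 and 37.9% among those of 728 to 915 bp. Among regions of 916 to 1240 bp it was 26.8, 26.6, 24.0 and 26.5%, and among the longest regions 12.6, 14.5, 14.6 and 13.8%. Without regard to length it ran 40.0, 33.8, 28.8 and 23.8% over the score quartiles.

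**Figure D2:**
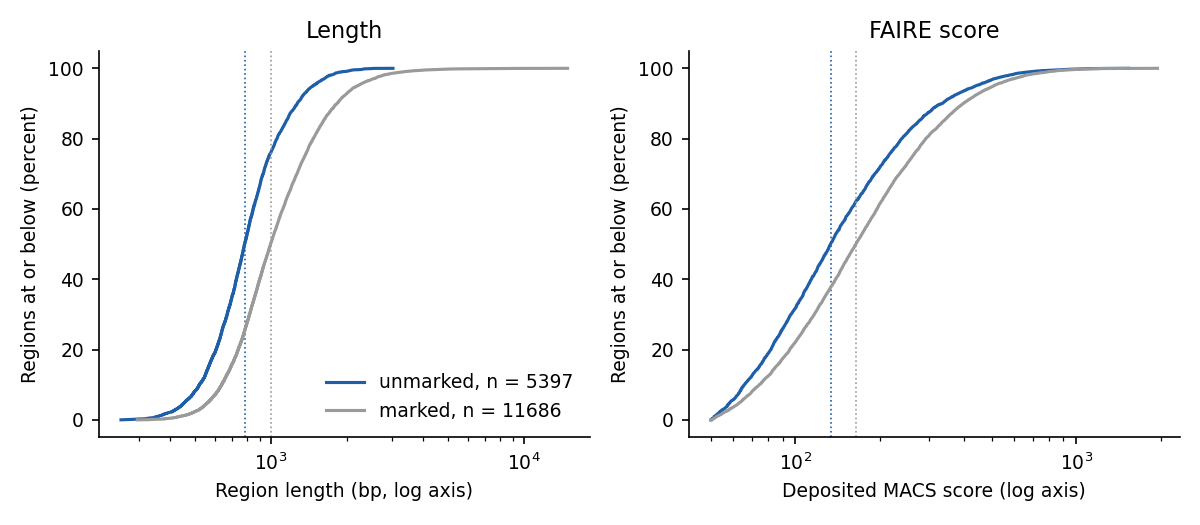
Cumulative percent of regions (vertical axes) by length in bp and by deposited MACS score (log axes) for unmarked and marked constitutive regions, with medians dotted. The unmarked curve lies to the left in both panels, with medians of 786 against 995 bp and 133 against 164.

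**Figure D3:**
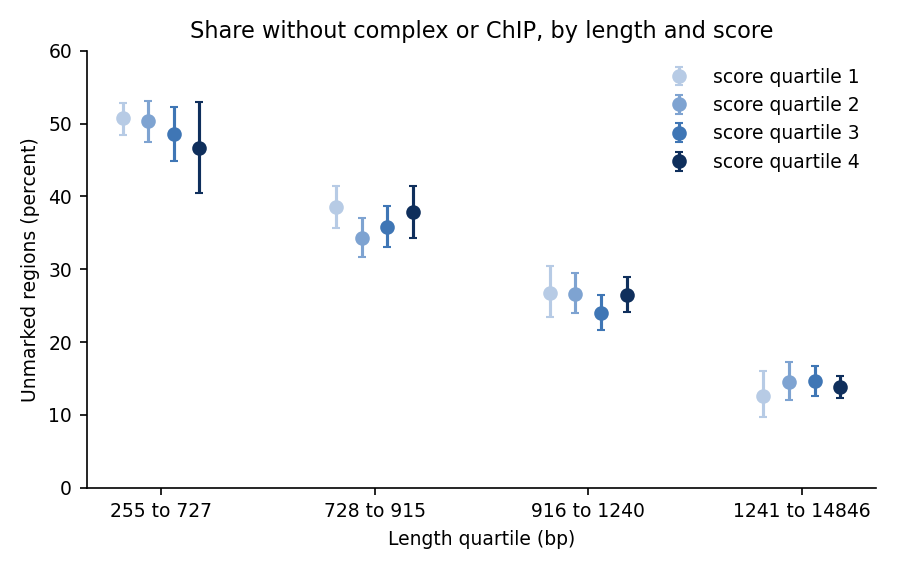
Percent of constitutive regions that were unmarked (vertical axis) by length quartile (horizontal axis, bp) and score quartile (colour), with exact 95% intervals. The points step down with length, in all from 2145 of 4293 of the shortest to 14.0% of the longest regions, and the 4 score quartiles lie close together at each length.

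Regions with high scores were thus found among the unmarked ones too. The highest score of an unmarked region ranked 5 among all constitutive regions. Of the 100 highest scoring constitutive regions 24 were unmarked, as were 230 of the 1000 highest. Both lie below the unmarked share of 31.6% over all constitutive regions. The leading one lay on chromosome 17 (build mm9), 57170753 to 57172000, with a score of 1535.06 over 1248 bp. Its nearest SpDamID fragment, Mef2c/MAML with a score of 273, was 15436 bp away, and its nearest ChIP region 19640 bp away. The next, on chromosome 19 at 12039536 to 12040487, scored 1511.68 and lay 16188 bp from a Mef2c/p300 fragment. On chromosome 8, 125566091 to 125567124 scored 1417.36 and stood only 101 bp from a Mef2c/MAML fragment and 4249 bp from a Notch-dependent region. Chromosome 18, 21457888 to 21459350, scored 1173.86 and lay 152 bp from a fragment of N1/RBP and Mef2c/MAML. Chromosome 10, 79861228 to 79862870, scored 1150.70 with a ChIP region at 529 bp and its nearest complex at 6820 bp. The region at 6363149 to 6364904 of chromosome 19 scored 1108.09 and stood 95 bp from a fragment of N1/p300 and Mef2c/MAML. The last 4 of the 10, on chromosomes 11, 3, 1 and 3 again, scored 1073.66, 1072.40, 1059.88 and 1058.14 at 6173, 3572, 165 and 932 bp from a fragment. Of these 10, then, 5 had a complex within 1 kb and 5 did not, where 32.5% of all unmarked regions had one. The fragment closest to the chromosome 1 region, from 167389736 to 167390122, was listed for N1/MAML, N1/p300, N1/N1 and Mef2c/MAML, and a ChIP region lay at 165 bp too.

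The longest unmarked regions had both low and high scores. The longest, on chromosome 4 from 79648196 to 79651226, spanned 3031 bp with a score of 102.32 and lay 700936 bp from any complex. The other 4 longest spanned 2566, 2556, 2513 and 2477 bp, on chromosomes 17, 7, 1 and 4, with scores of 177.74, 68.62, 557.79 and 175.40. Their nearest fragments were 408, 5294, 1664 and 1842 bp away. The scores of these 5 lay on both sides of the median of 133, and the highest belonged to chromosome 1, 88421096 to 88423608.

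Although free of marks themselves, unmarked regions often had marked DNA nearby. Their median distance to the nearest SpDamID fragment of any complex was 2815 bp, with quartiles of 616 and 9445 bp. Within 1 kb there was a fragment for 1752 of them, 32.5% (31.2 to 33.7%), within 10 kb for 76.4% and within 100 kb for 98.8%. The lists together hold 96405 distinct fragments on these chromosomes. Distances from DNA outside open regions were not measured, so how these shares compare with the genome at large is unknown. Over the alternatives the median distance ran from 491 bp, by the central base, to 7099 bp, with SpDamID scores from each list's median up. The share within 1 kb ran from 13.5%, with marks widened by 500 bp, to 57.3% by the central base. Both ends follow in part from the rule itself. Widening drops every region within 500 bp of a fragment, and the central base keeps regions that a fragment overlaps elsewhere. A fragment within 1 kb on both sides was found for 195, 3.61% (3.13 to 4.15%). Other open regions without a complex gave values on either side. Constitutive regions with ChIP only had a fragment within 1 kb in 47.6% (44.8 to 50.4%) of 1253, and Notch-dependent regions without a complex in 25.4% (22.2 to 28.9%) of 680. The medians were 1197 and 4271 bp for those 2 classes. Their lengths differed as well, with medians of 786 bp for unmarked regions, 960 bp for those with ChIP only and 730 bp for the Notch-dependent ones. Among unmarked regions the share with a fragment within 1 kb ran 27.3, 33.9, 37.4 and 38.4% from the shortest to the longest quartile, the last 2 with overlapping intervals. The part of length in the differences between classes was not tested.

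**Figure D4:**
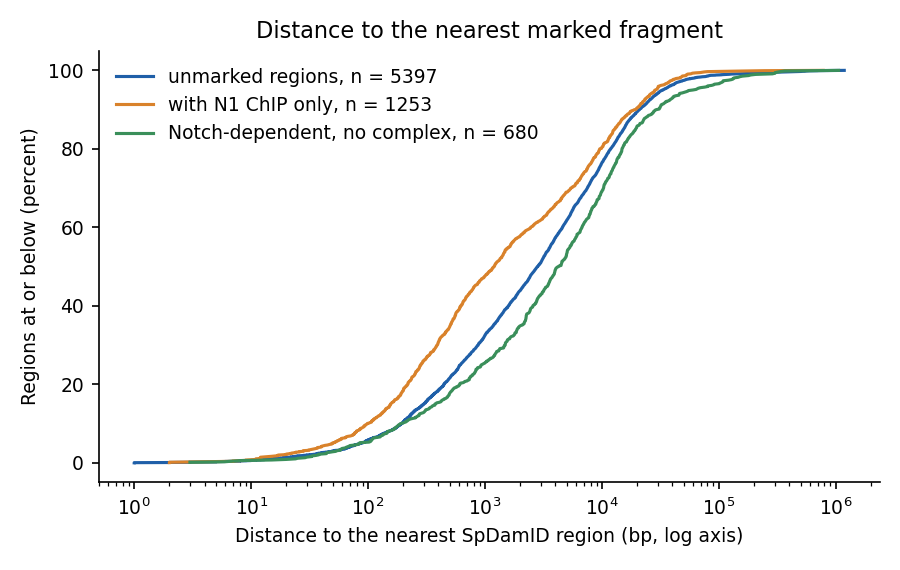
Cumulative percent of open regions (vertical axis) by distance to the nearest SpDamID fragment (bp, log axis) for the 3 classes of open region that overlap none. Unmarked regions (median 2815 bp) lie, at the median, between regions with ChIP only (1197 bp) and Notch-dependent regions without a complex (4271 bp).

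By complex, Mef2c/MAML lay nearest. A Mef2c/MAML fragment was within 1 kb of 21.0% of unmarked regions, an N1/RBP fragment of 15.5%, an N1/N1 fragment of 13.6%, an N1/p300 fragment of 8.41%, a Mef2c/p300 fragment of 8.08% and an N1/MAML fragment of 6.60%. The median distances in the same order were 6687, 13848, 12746, 21514, 17208 and 30092 bp. The lists differ in size, from 50380 Mef2c/MAML to 16545 N1/MAML fragments on these chromosomes. Mef2c/p300, with 28757 fragments, was within 1 kb of 436 unmarked regions, N1/p300, with 22358, of 454 and N1/RBP, with 28281, of 837. The fragments of these lists that lay on constitutive regions numbered 4478, 7045 and 8910, in the same order. The part of list size in the order of the complexes was not tested. The gap between unmarked regions and those with ChIP only was large for Mef2c/MAML, 21.0 against 32.6%, and N1/RBP, 15.5 against 26.3%, and narrow for Mef2c/p300, 8.08 against 9.10% with overlapping intervals (7.37 to 8.84 and 7.56 to 10.8%). Against Notch-dependent regions without a complex, a larger share of unmarked regions had a fragment within 1 kb for Mef2c/MAML, 21.0 against 13.5%, N1/RBP, 15.5 against 8.09%, N1/N1, 13.6 against 8.53%, and N1/MAML, 6.60 against 3.09%. For Mef2c/p300 the values were 8.08% (7.37 to 8.84%) against 6.76% (4.99 to 8.92%), and for N1/p300 8.41% (7.68 to 9.18%) against 8.24% (6.28 to 10.6%).

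The fragments beside unmarked regions were in fewer lists, and had lower scores, than those on open regions. The 1739 distinct fragments that were the nearest within 1 kb of an unmarked region were in a single list in 53.1% of cases, in 4 or more lists in 15.0% and in all 6 in 3.11%. For the 16076 fragments that lay on constitutive regions these values were 32.2, 33.5 and 9.89%, and for all 96405 fragments they were 60.1, 13.0 and 3.01%. In this respect the neighbours of unmarked regions stood close to the whole of the lists. Their scores did so too. The median N1/RBP score was 320 beside unmarked regions, against 398 on constitutive regions and 332 in the whole list, and for N1/p300 the medians were 306, 401 and 342. Beside unmarked regions the median was lower than on constitutive regions in all 6 lists. Median fragment lengths were 566, 590 and 596 bp for the same 3 sets.

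N1 ChIP and Notch-dependent regions were farther off than the nearest fragment of any complex, but their lists are smaller. On these chromosomes there were 22306 ChIP and 2396 Notch-dependent regions, against 96405 distinct fragments. The part of list size in these distances was not tested. The nearest ChIP region was within 1 kb of 8.15% (7.44 to 8.91%) of unmarked regions and of 5.41% (4.93 to 5.92%) of the 8172 constitutive regions with a complex and no ChIP. Within 100 kb the shares were 76.7 and 76.6%. For single complexes, the share of unmarked regions with a fragment within 1 kb was below the 8.15% of ChIP for N1/MAML, 6.60%, and Mef2c/p300, 8.08%. It was above 8.15% for N1/p300, 8.41%, N1/N1, 13.6%, N1/RBP, 15.5%, and Mef2c/MAML, 21.0%. A Notch-dependent region was within 10 kb of 4.50% (3.96 to 5.09%) of unmarked regions and of 6.49% (6.02 to 6.98%) of the 10433 constitutive regions with a complex. Median distances to it were 250937 bp for unmarked regions and 204740 bp for those with a complex. Regions with ChIP only had 2.47% (1.69 to 3.49%) within 10 kb, below both.

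The edge of the rule passes through a continuous range. At distances of 1 to 10 bp from a complex or ChIP region there were 44 unmarked regions, and 58 marked regions were covered by marks over only 1 to 10 bp. Up to 100 bp the numbers were 383 and 604. At 1 base from a mark there were 7 unmarked regions, 3 beside an SpDamID fragment and 4 beside a ChIP region. Of those nearest to an SpDamID fragment, at 1 base, the first was chromosome 3, 48865984 to 48866642, beside a Mef2c/MAML fragment with a score of 502. Chromosome 5, 20645209 to 20645962, adjoined a fragment of Mef2c/MAML and Mef2c/p300, and chromosome 16, 96211966 to 96213023, one of Mef2c/MAML. The next by distance to a fragment, at 2 bases, were on chromosome 2 at 77179753 to 77180595 and 167118673 to 167119404, beside a Mef2c/MAML and an N1/RBP fragment. Just inside, 4 regions were covered over 1 base by a complex or ChIP. They lay on chromosome 7 at 59168851 to 59169727 with N1/RBP, on chromosome 11 at 78310883 to 78311745 with ChIP, on chromosome 13 at 112911017 to 112911898 with N1/RBP and N1/N1, and on chromosome 15 at 102553681 to 102554806 with all 6 complexes. Chromosome 8, 113426254 to 113426766, followed with 2 bases of ChIP. Scores of the 5 named regions beside a fragment ran from 112.94 to 203.08 and of the 5 just inside from 84.26 to 261.45, so the ranges overlapped. Most marked regions were far from this edge, with a median of 614 bases, or 64.2% of the region, under a mark.

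At the far end were isolated regions. The 5 unmarked regions most distant from any complex, ChIP or Notch-dependent region lay on chromosome 2 at 41628164 to 41628677 (1183330 bp from the nearest fragment), chromosome 19 at 51216826 to 51217374 (891587 bp), chromosome 1 at 124253615 to 124253937 (702815 bp), the chromosome 4 region of 3031 bp already given, and chromosome X at 113400662 to 113401094 (670756 bp). Their scores were 85.87, 175.64, 144.29, 102.32 and 182.10, and all but the chromosome 4 one were short, from 323 to 549 bp. In each case the nearest fragment was in 1 list, Mef2c/p300 for 3 of them and N1/MAML for the others.

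Unmarked regions lay farther from other open regions of any class than constitutive regions with a complex did. The median distance to the nearest other total FAIRE region was 16719 bp (15862 to 17418) for unmarked regions and 10794 bp (10262 to 11259) for constitutive regions with a complex. It was 19541 bp for regions with ChIP only and 15799.5 bp (13941 to 17989) for Notch-dependent regions without a complex. The unmarked share was 24.0% (22.7 to 25.3%) in the most crowded quartile of constitutive regions, with a neighbour within 3580 bp, and 38.2% (36.7 to 39.6%) in the sparsest quartile, with none nearer than 36265 bp. Given the lengths of the regions alone the shares would be 30.2 and 33.9%. Neighbours were compared next. Where the nearest FAIRE region was constitutive as well, it was unmarked for 35.7% (34.4 to 37.1%) of 4863 unmarked regions and for 27.1% (26.3 to 28.0%) of 10625 marked ones. For neighbours within 1 kb the values were 46.1% of 438 and 15.6% of 1516, a distance at which 1 fragment can reach both regions. In chromosomal order the unmarked regions formed 3676 unbroken series, 2530 of them a single region. The longest series held 8. They lay on chromosome 5 from 124132291 to 124431221, on chromosome 12 from 112806798 to 113184688 and on chromosome 7 from 106602309 to 107308563. Between 14 and 28 SpDamID fragments lay inside each of these stretches, by definition without touching an unmarked region of the series.

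The unmarked share was even over most of the genome, with 4 chromosomes set apart after their values were seen. On 16 chromosomes it lay between 30.7 and 35.5%. Chromosome 8 had 216 unmarked of 1064 constitutive regions, 20.3% (17.9 to 22.8%), chromosome 3 had 225 of 1017, 22.1% (19.6 to 24.8%), and chromosome 19 had 150 of 657, 22.8% (19.7 to 26.2%). Chromosome X had 145 of 343, 42.3% (37.0 to 47.7%). Open regions on chromosomes 8, 3 and 19 were longer as a class, with medians of 1087, 1104 and 1142 bp, against 839 to 942 bp on the 16 others and 833 bp on X. Taking for each region the unmarked share of constitutive regions of like length, in 20 classes over the genome, gave 26.2, 26.3 and 25.3% for chromosomes 8, 3 and 19 and 33.8% for X. The observed share was 0.775, 0.842 and 0.904 times this value on chromosomes 8, 3 and 19 and 1.25 times on X, and 0.951 to 1.07 times on the 16 others. The interval of chromosome 19 held the value for its lengths, and those of chromosomes 8, 3 and X did not. Chromosome 8 also had the largest share of constitutive regions with ChIP, 32.0%, and X the smallest, 14.0%. Copy number of these chromosomes was not analysed here.

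**Figure D5:**
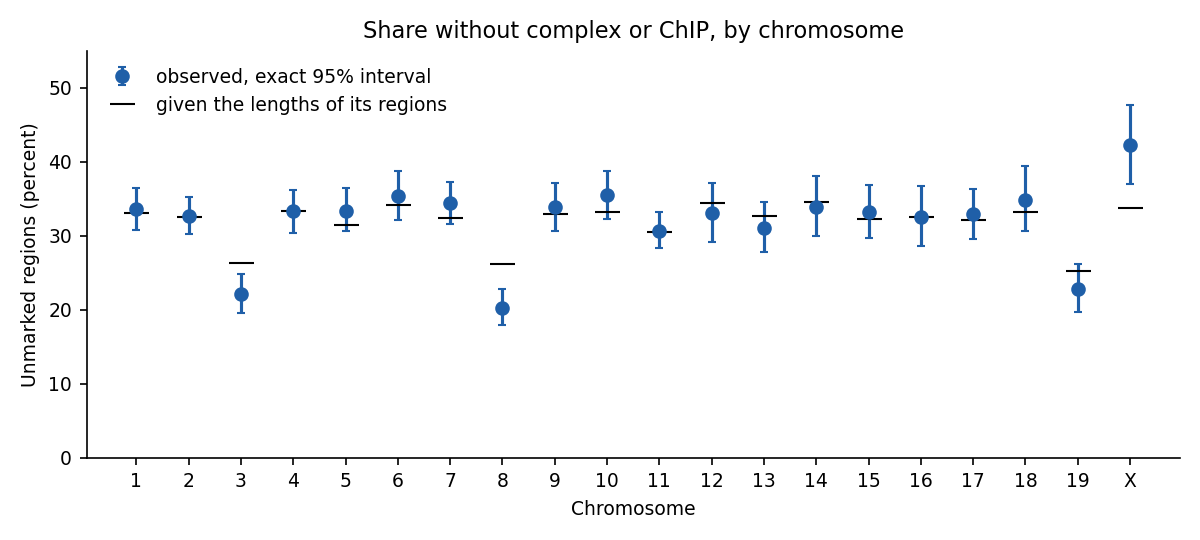
Percent of constitutive regions that were unmarked on each chromosome (vertical axis) with exact 95% intervals, and, as black dashes, the percent for regions of the same lengths over the genome. Chromosomes 3, 8 and 19 lie low at 22.1, 20.3 and 22.8%, and X high at 42.3%.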

How the data were processed

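Peaks of FAIRE were called with MACS in Galaxy, per the file headers, and carry a deposited MACS score whose scale is not given. The total FAIRE list holds 19396 regions with scores from 50.01 up, while its peak numbers run up to 31522. Called peaks may thus be missing from it, and an open region here means a listed one. Each SpDamID list holds, per the file headers, the authors' score for a complex relative to Dam, with the confidence level set at 0.999 or above. The ChIP table holds a deposited signal for ChIP and for input and their ratio, of at least 10 per its name. The name also says RepeatMasked, without saying how. Whether open regions in repeats could carry a listed ChIP region was not tested. The authors' versions, their aligner and how they chose Notch-dependent peaks are not given in the sources at hand. Lists were matched to complexes by protein initials. The build is mm9 according to the submitters' processing notes. Gene annotation and sequence of that build were not used here, so the planned values for GATC sites, transcription starts and GC content, and any gene name, are left out.

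In Python 3.11.15 with scipy 1.17.1, FAIRE starts were raised by 1 base and regions with 1 bp or more in common counted as overlapping. Shares have exact Clopper-Pearson and medians exact binomial order-statistic 95% intervals. Distances of 1 bp mean adjoining regions. Named regions are the 10 with the highest score, the 5 longest, the 5 farthest from any mark, the 5 nearest to an SpDamID region, and the 5 marked ones with the least overlap. Overlap functions were tested on simulated data against plain loops, with 0 differences in 900 cases. The regions and tests were chosen with earlier results of these data known. The classes of 20 lengths were chosen after seeing the data.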

Additional observations from a re-analysis of the deposited data

How the results depend on the processing

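Median scores of unmarked minus marked regions within length quartiles ran from -2.27 to 2.46, and over the alternatives from -16.1 to 13.4, both with FAIRE scores from the list median. In 15 alternatives for 8 values, 70 of 120 values stayed within the interval of the main value (for the number of regions, within 1.5 times), 50 moved and 0 changed direction. Only the differences between unmarked and marked regions could change direction, since the other values cannot be negative. The score differences within length quartiles, which took both signs, are not part of this tally. The differences between unmarked and marked regions, -30.7 in median score and -209 bp in median length, moved to -12.1 and -106 bp by peak centre and to -16.6 and -236 bp with FAIRE scores from the list median. The length difference was -228 bp with SpDamID scores from the median and -235 bp with peaks within 500 bp merged. By peak centre there were 9459 unmarked regions, 55.4% of constitutive ones, with a median score of 148, a median length of 872 bp, 57.3% within 1 kb of a complex and a median distance of 491 bp. With FAIRE scores from the list median there were 2191, 26.2%, with medians of 237 and 910 bp, 37.4% within 1 kb and 2163 bp. In the order share, score, length, share within 1 kb and distance, overlap of 50% of the smaller region gave 40.0%, 137, 802 bp, 45.9% and 1368.5 bp, and marks widened by 500 bp gave 23.7%, 130, 773 bp, 13.5% and 4876 bp. SpDamID scores from the median gave a share of 42.6%, 802 bp, 19.6% within 1 kb and 7099 bp. ChIP regions of at least 300 bp gave 35.2%, a score of 137, 801 bp and 33.9% within 1 kb. Leaving out 1 list gave shares of 33.2% (N1/RBP), 32.9% (N1/MAML), 32.3% (N1/p300), 35.6% (N1/N1) and 34.7% (Mef2c/MAML). Shares within 1 kb and distances were then 30.5% and 3110 bp without N1/RBP, 29.7% and 3306 bp without N1/N1 (length 798 bp), 25.5% and 4275 bp without Mef2c/MAML, and 31.1% and 3178 bp without Mef2c/p300. The cause of these shifts was not tested, except that fewer or narrower marks leave more regions unmarked by construction. Distances to a complex also shift by construction, up with marks widened by 500 bp and down by peak centre. Autosomes only and leaving out SpDamID regions over 5 kb, an alternative added after seeing the data as were both differences, moved no value. No library could be left out in turn. No paired analysis was possible because the lists give no values for separate replicates. Depth per library is unknown, so an unmarked region may hold a complex below the lists' thresholds.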
